A study of Mus musculus with 36 samples.

Results

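The 43 genes described here encode the secreted ligands, receptors, antagonists and agonists of the Wnt pathway, together with its nuclear factors and a target gene. They were taken by gene symbol from the 21442 genes of the count table. The rule uses no measured value, but earlier results of these data were known when it was set. It took every gene named Wnt, Fzd, Sfrp, Dkk or Rspo with a number, plus Lef1, Tcf7, Tcf7l1, Tcf7l2, Axin2 and Lgr5. By role these were 16 Wnt ligands, 10 Frizzled receptors (Fzd), 7 secreted inhibitors (4 Sfrp and 3 Dkk genes), 4 R-spondins with their receptor Lgr5, 4 nuclear factors and Axin2. Gene positions below are on mouse genome build GRCm38.

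Wnt proteins are secreted signals that bind a Frizzled receptor and an Lrp co-receptor, and thereby stop the Axin-containing complex from destroying beta-catenin. Beta-catenin then enters the nucleus and joins the DNA-binding factors Tcf7, Lef1, Tcf7l1 and Tcf7l2, of which Tcf7l1 (also known as Tcf3) is best known as a repressor. Sfrp proteins bind Wnt ligands outside the cell, Dkk1 and Dkk2 bind the co-receptors, and R-spondins with Lgr receptors raise the number of Frizzled receptors on the surface. Axin2 is transcribed in response to beta-catenin and feeds back on the pathway, so it is widely read as a sign of its activity. In mouse embryonic stem cells the pathway supports self-renewal, and Tcf7l1 limits the transcription of pluripotency genes.

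The study asked how loss of the zinc finger protein gene Zfp266 alters reprogramming of fibroblasts to pluripotency. RNA was sequenced from 36 mouse libraries: 6 stages, each with 3 wild-type (WT) and 3 Zfp266 knockout (KO) libraries. The studied cells derive from an embryonic stem cell (ESC) clone that expresses Cas9 from the Rosa26 locus under the EF1α promoter, and that carries a Nanog-GFP reporter and a doxycycline-inducible cassette with Oct4, Sox2, Klf4 and Myc (OSKM). Mouse embryonic fibroblasts (MEFs) of strain 129 came at passage 2 from E12.5 chimeric embryos made by morula aggregation, so MEF libraries can hold cells of the host embryo. They received a lentivirus with a non-targeting (WT) or a Zfp266 (KO) guide RNA and were harvested 96 hours later. Cells of days 3, 5 and 7 were such MEFs, mixed with WT 129 MEFs and given the same viruses, then 300 ng/ml doxycycline and 10 µg/ml vitamin C, and sorted for the mOrange reporter of the transgene. The KO libraries up to day 7 are therefore populations of edited cells and not clones. Induced pluripotent stem cells (iPSCs) were Nanog-GFP-positive clones taken at day 15 and selected with puromycin, and the KO clones were genotyped by the authors. The 3 WT ESC libraries come from 1 parental line, Clone J, and the 3 KO ESC libraries from single-cell clones made from it with a Zfp266 guide plasmid. The authors call the reprogramming replicates independent samples without saying what was separate, and the WT ESC libraries are 1 line, so p-values measure only the spread between these samples, which may be in part technical.

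Libraries held 19224103 to 39610939 counted reads, and levels are given as normalised counts, which are reads divided by a size factor per library. A count of 0 allows up to 3 reads, or 2.31 to 5.22 normalised counts depending on the library, and this limit covers counting error only. The Zfp266 transcript was detected in every group, from 1266 normalised counts in a day 5 WT library to 3293 in a KO MEF library, and its level does not check the edit. The 6 fibroblast markers summed to 398778 to 416191 normalised counts in WT MEFs and 72.1 to 84.3 in WT ESCs, where Col3a1 and Postn were at 0. The 6 pluripotency markers summed to 19.7 to 30.8 in WT MEFs, 93690.3 to 109636 in WT iPSCs and 111853 to 119179 in WT ESCs, so the labelled cell types carried their defining markers. At the members 1 library stood far apart, KO MEF replicate 3. There 12 of the 37 members at 10 or more normalised counts (32.4%) lay over 2-fold outside the range of the other 5 MEF libraries, against 7.56% of all genes. In no other MEF library did a member do so. At day 7, Axin2 and Wnt8a lay so far below the other libraries in WT replicate 1 (5.88% of members, 0.593% of all genes). In KO day 7 replicate 3, Dkk2, Rspo1 and Wnt5a did (8.82% of members, 0.599% of all genes). A single member did in KO day 3 replicate 2 and KO ESC replicate 1 (Wnt7b), KO day 5 replicate 1 (Wnt16) and KO ESC replicate 3 (Wnt5b). Of all genes, 2.74% lay so far outside in WT iPSC replicate 2 and 1.25% in KO iPSC replicate 1, but no member did in either. KO iPSC replicate 1 carried 204 normalised counts of Gata6 and 64.9 of Sox17, markers of primitive endoderm, against 7.42 to 42.2 and 1.74 to 11.1 in the other iPSC libraries. In bulk RNA, fewer cells of a type and less RNA per cell cannot be told apart.

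The first comparison follows the members through reprogramming of WT cells. MEFs carried high levels of secreted inhibitors, a few ligands and several receptors, and by day 3 most of these had fallen. Per kb of merged exon, the highest members in WT MEFs were Dkk3 (1649 ± 22.2 normalised counts per kb, SD, n = 3), Sfrp1 (1594 ± 12.1) and Sfrp2 (1524 ± 21.0), and Sfrp2 passed Sfrp1 when the longest transcript set the length. In WT cells at day 7 Sfrp1 led (596 ± 131 normalised counts per kb), followed by Fzd5 (224 ± 13). With the longest transcript as length, Tcf7l2 (251 ± 12.1) came second, ahead of Fzd5. In WT ESCs the order was led by Fzd7 (946 ± 77.6 normalised counts per kb), with Tcf7l1 (473 ± 67.1) and Fzd5 (467 ± 55.3) next and closer to each other than their SD. Between WT MEFs and WT day 3 cells, 37 of the 42 members with an adjusted p passed the test (DESeq2 Wald test, Benjamini-Hochberg FDR < 0.05, log2 fold change unshrunken). Of these 9 rose and 28 fell, where 70.9% of all genes passed, 33.8% higher and 37.1% lower. The median log2FC of those 42 members was -2.33, against -0.01 over all genes.

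**Figure D1:**
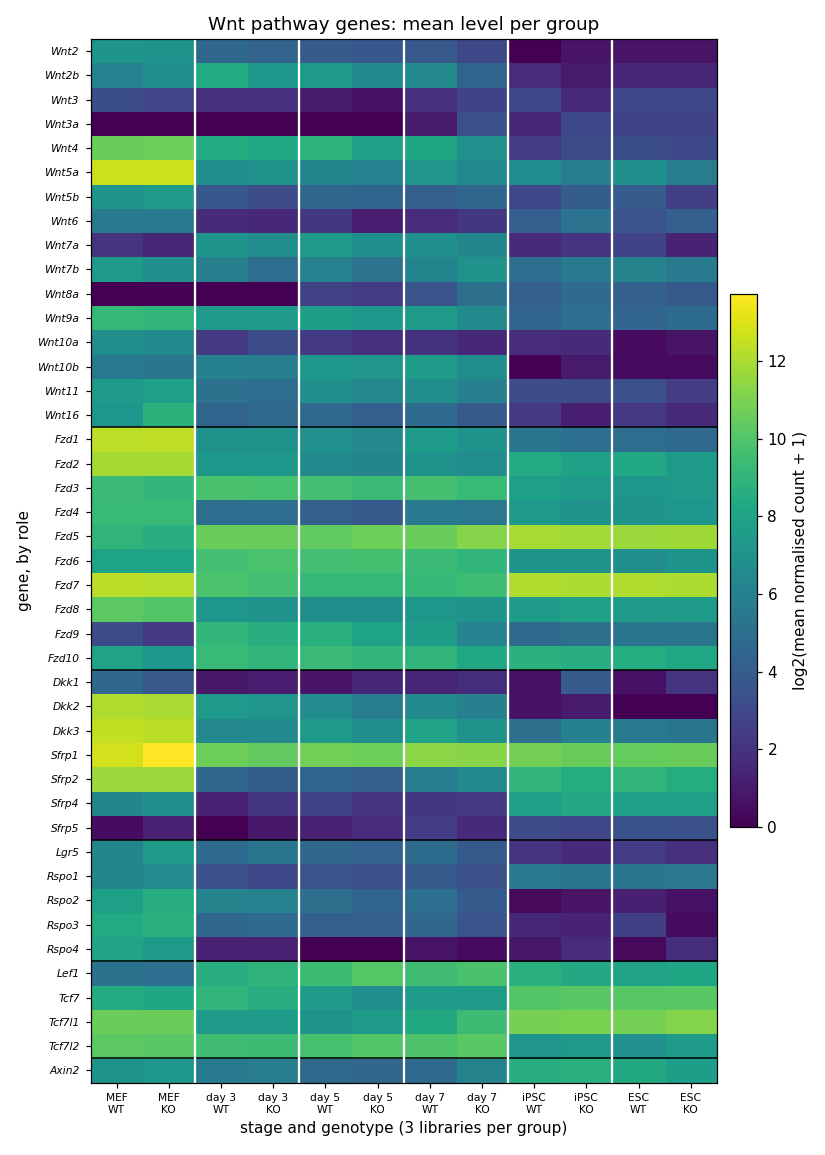
Mean level of each of the 43 genes in the 12 groups of 3 libraries, as the log2 of the mean normalised count plus 1 (colour), with genes in rows grouped by role and stages in columns, WT beside KO. Dkk3, Sfrp2, Wnt5a and Fzd1 are bright in the MEF columns and darker from day 3 on, while Fzd9, Wnt7a and Lef1 are dark in MEFs and bright at days 3 to 7.

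Among ligands, 9 fell and 2 rose from WT MEFs to WT day 3. Wnt5a, a ligand best known for beta-catenin-independent signalling, went from 6528 to 6699 normalised counts in the 3 MEF libraries to 161, 89.0 and 87.2 at day 3 (log2FC -5.87 ± 0.38, FDR = 5.84e-52). Wnt4, a ligand of kidney and gonad development, held 1435, 1655 and 1626 normalised counts in WT MEFs, 421, 250 and 358 at day 3, 441, 438 and 515 at day 5 and 212, 299 and 305 at day 7. Its MEF libraries lay above every later WT library (log2FC -2.20 ± 0.20, FDR = 3.67e-28, day 3 against MEFs), and it fell once more between days 5 and 7 (log2FC -0.77 ± 0.20, FDR = 0.00116). By contrast Wnt2b, whose product acts through beta-catenin, rose from 74.8, 75.7 and 53.1 normalised counts to 261, 336 and 388 at day 3 (log2FC 2.28 ± 0.42, FDR = 1.86e-07), with no overlap. Wnt7a rose from a mean of 3.38 ± 3.48 (SD, n = 3) to 134 ± 37.3 normalised counts (log2FC 5.38 ± 0.62, FDR = 1.07e-17). From day 3 to day 5, Wnt11 (log2FC 1.79, FDR = 2.49e-06) and Wnt10b (log2FC 1.30, FDR = 0.00309) rose. Wnt8a had no read in any MEF or day 3 library, and its WT day 5 mean of 5.40 normalised counts was at least 1.87-fold higher than the limit a count of 0 allows per WT day 3 library. Wnt3a was at 0 in WT MEFs and WT day 3 cells, and Wnt3 stayed under 10 normalised counts on average in both.

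Several ligands that were present at day 7 were near 0 in pluripotent cells. Wnt4 was 0, 6.89 and 5.57 normalised counts in WT iPSCs, below all day 7 libraries (log2FC -6.04 ± 0.43, FDR = 2.94e-43). Wnt2b fell from 87.5 to 2.34 on average (log2FC -5.22 ± 0.66, FDR = 7.87e-15), at or under the limit of 0 in these iPSC libraries. Wnt10b, 101, 172 and 281 normalised counts in WT day 7 cells, had no read in WT iPSCs, at least 69.7-fold lower against 3 reads per library. Wnt7a, Wnt9a, Wnt11 and Wnt16 also fell, with log2FC -5.83, -3.07, -3.67 and -2.80. Among ligands only Wnt6 rose in WT iPSCs past the test, from 2.36 to 16.4 normalised counts (log2FC 2.79 ± 0.76, FDR = 4.68e-04).

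All 10 Frizzled receptors passed the test between WT MEFs and WT day 3, 5 in each direction. Fzd1 went from 5062 to 5322 normalised counts in MEFs to 168, 117 and 103 at day 3 (log2FC -5.34 ± 0.26, FDR = 3.93e-89), and Fzd2, Fzd4, Fzd7 and Fzd8 fell as well, by 2.47 to 4.60 on the log2 scale. Fzd9, a receptor gene at chromosome 5, 135248938 to 135251230, held 12.2, 7.57 and 4.25 normalised counts in WT MEFs and 457, 557 and 599.9 at day 3 (log2FC 6.17 ± 0.42, FDR = 2.78e-48). The groups were far apart, and Fzd5, Fzd6, Fzd10 and Fzd3 rose too, by log2FC 1.62, 1.69, 1.41 and 0.46. Fzd9 then fell from day 5 to day 7 (log2FC -1.08 ± 0.22, FDR = 2.46e-05) and again to 25.0, 18.1 and 31.5 in WT iPSCs. Fzd7, described as a main Frizzled of pluripotent cells, traced a different course: 5181, 4816 and 5080.4 normalised counts in WT MEFs, 533, 588 and 615 at day 7 and 4833, 3810.5 and 4362 in WT iPSCs (log2FC 2.91 ± 0.19, FDR = 2.28e-49, iPSC against day 7). The day 7 libraries lay below both other groups, and the WT ESC and WT MEF levels of Fzd7 were not separated by the test (log2FC -0.23 ± 0.19, FDR = 0.27). Fzd5 rose at both ends of the course and was highest in pluripotent cells, at 4189, 4205 and 3287 in WT iPSCs against 1651, 1489 and 1503 at day 7 (log2FC 1.33 ± 0.16, FDR = 7.43e-17).

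Secreted inhibitors fell at the start of reprogramming: 6 of 7 passed the test at day 3 and all 6 were lower. Dkk3, a secreted relative of the Dkk antagonists, held 5466, 5534 and 5615 normalised counts in WT MEFs and 112, 63.0 and 90.1 at day 3 (log2FC -5.97 ± 0.23, FDR = 3.03e-146). Sfrp2 fell further still, from 3264, 3334 and 3249 to 25.7, 18.0 and 26.2 normalised counts (log2FC -7.14 ± 0.24, FDR = 7.69e-189). Sfrp1 kept more of its level, with 6909.7, 7008 and 6992 in WT MEFs and 1585, 1750.1 and 1573 at day 3 (log2FC -2.09 ± 0.37, FDR = 2.90e-08). Groups did not overlap for any of the 3 genes. Sfrp2 came back in part: it rose from day 5 to day 7 (log2FC 1.33 ± 0.28, FDR = 3.06e-05) and reached 682, 425 and 460.2 in WT iPSCs (log2FC 3.32 ± 0.21, FDR = 9.72e-55). Sfrp4 also rose in WT iPSCs, from 3.71 to 224 normalised counts (log2FC 5.91 ± 0.59, FDR = 9.36e-23). Dkk2, near 4376 normalised counts in WT MEFs, had no read in WT ESCs, at least 1517-fold lower against 3 reads per library. All 4 R-spondins and Lgr5 fell from MEFs to day 3, by 1.54 to 7.32 on the log2 scale. Lgr5, the R-spondin receptor that marks intestinal stem cells, held 67.8, 78.8 and 89.1 normalised counts in WT MEFs, 38.5, 22 and 20.4 at day 3, 24.3, 28.2 and 30.9 at day 7 and 2.59, 4.31 and 2.78 in WT iPSCs. It was lower at day 3 than in every MEF library (log2FC -1.54 ± 0.53, FDR = 0.00531) and at most 10.1 normalised counts in pluripotent cells.

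The nuclear factors took opposite courses. Tcf7l1, at chromosome 6, 72626378 to 72789254, minus strand, held 1595, 1589 and 1650.3 normalised counts in WT MEFs, 179, 149 and 181 at day 3, 118, 122 and 156 at day 5, 310.4, 320.2 and 325 at day 7 and 2212, 1377 and 2205 in WT iPSCs. It fell at day 3 (log2FC -3.25 ± 0.14, FDR = 9.97e-110), rose from day 5 to day 7 (log2FC 1.27 ± 0.15, FDR = 3.29e-14) and rose again in iPSCs (log2FC 2.60 ± 0.14, FDR = 4.61e-78). Lef1 went the other way, from 36.5, 36.4 and 31.8 normalised counts in WT MEFs to 335, 437 and 445 at day 3 and 749.6, 735 and 735 at day 7, with no overlap between MEFs and day 3 (log2FC 3.54 ± 0.47, FDR = 1.39e-13). Its WT iPSC clones were spread from 148 to 773, and iPSC against day 7 missed the test (log2FC -0.80 ± 0.44, FDR = 0.0876). Tcf7 held 437, 546 and 599 at day 3, 146, 167 and 230.1 at day 5 and 1037, 878 and 1280.4 in WT iPSCs, falling between days 3 and 5 (log2FC -1.54 ± 0.28, FDR = 7.83e-07) and rising in iPSCs (log2FC 2.53 ± 0.28, FDR = 4.19e-19). Tcf7l2 was at 1303, 1229.9 and 1162 in WT MEFs, 967, 953 and 883 at day 7 and 154, 151 and 119 in WT iPSCs, where it fell (log2FC -2.72 ± 0.10, FDR = 1.05e-155). The target gene Axin2, at chromosome 11, 108920349 to 108950783, plus strand, held 111, 141 and 144 normalised counts in WT MEFs, 47.7, 43.0 and 52.3 at day 3, 18.4, 38.2 and 20.8 at day 5, 10.1, 39.3 and 23.7 at day 7 and 317, 537 and 264 in WT iPSCs. It fell at day 3 (log2FC -1.47 ± 0.33, FDR = 1.21e-05) and at day 5 (log2FC -0.89 ± 0.35, FDR = 0.048), and every iPSC library lay above every earlier WT library (log2FC 3.93 ± 0.34, FDR = 2.70e-30).

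In all, 11 of 41 members passed between WT days 3 and 5 (5 higher, 6 lower, against 25.7% of genes, 12.6% higher and 13% lower) and 5 of 38 between days 5 and 7 (3 higher, 2 lower, against 24.7% of genes, 13.8% higher and 10.9% lower). The count between days 3 and 5 was 6 without WT day 5 replicate 1 (26.0% of all genes). Between days 5 and 7 it was 12 in a fit of those libraries alone (29.1% of all genes) and 9 without KO MEF replicate 3 (27.8%). Between WT day 7 and WT iPSCs, 30 of 42 members passed (11 higher, 19 lower, against 73.5% of genes, 35.8% higher and 37.7% lower). WT ESCs and WT iPSCs were not separated at any of the 22 members with an adjusted p (DESeq2, 3.2% of genes passed), where 8 members had an unadjusted p below 0.05. From WT MEFs to WT ESCs 36 of 42 passed (9 higher, 27 lower, against 79.3% of genes, 40.0% higher and 39.4% lower), with Lef1 (log2FC 2.78, FDR = 7.50e-09), Tcf7 (log2FC 1.70, FDR = 2.01e-09), Fzd5 (log2FC 2.69, FDR = 2.77e-61) and Axin2 (log2FC 1.29, FDR = 4.47e-05) among the higher ones. These WT comparisons share libraries, so their counts are not independent of each other.

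The second comparison asks what loss of Zfp266 did to the same genes at each stage. In MEFs none of 25 members with an adjusted p passed in DESeq2 (0.086% of genes did), with 4 at an unadjusted p below 0.05 and 0 in edgeR. KO MEF replicate 3 spread the KO group widely. Sfrp1 was 6441, 6161 and 27810.2 normalised counts in KO MEFs against 6909.7, 7008 and 6992 in WT MEFs (log2FC 0.95 ± 0.37, FDR = 0.41), and Lgr5 82.7, 74.4 and 365 against 67.8, 78.8 and 89.1. In this library Wnt16 was 1094 normalised counts and Rspo2 766, while Rspo4 was 2.12 against 207 to 297 in the other 5, so members lay on both sides of the others. Fitted without KO MEF replicate 3, still none passed in MEFs (0.0873% of all genes), and without KO MEF replicate 1 or 2 only Sfrp1 did (1.04% and 0.849%).

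**Figure D2:**
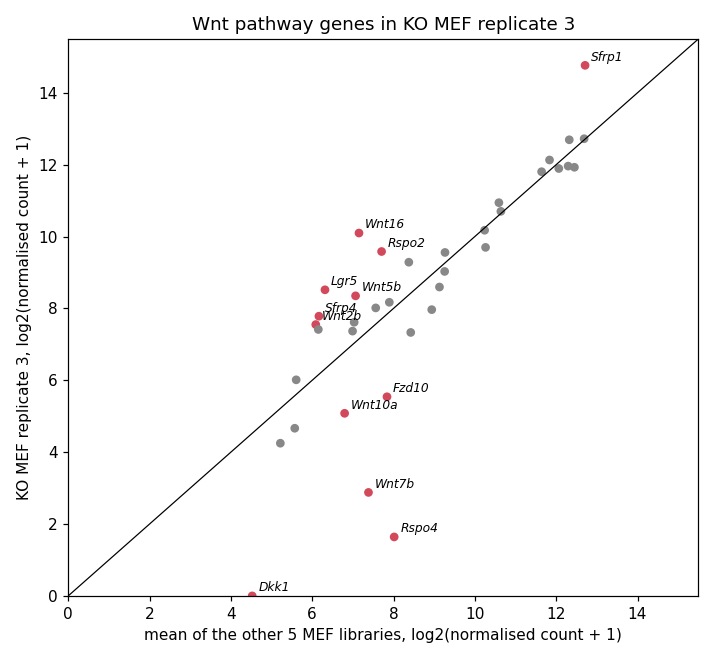
Level of each member at 10 or more normalised counts in KO MEF replicate 3 (vertical) against its mean in the other 5 MEF libraries (horizontal), both as log2(normalised count + 1), with a line of equality. The 12 red, named genes lie over 2-fold outside the range of the other libraries, among them Sfrp1, Wnt16 and Lgr5 above the line and Rspo4 far below it.

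At day 3 none of 35 members passed in DESeq2 (0.493% of genes did), with 2 at an unadjusted p below 0.05 and 0 in edgeR. Those were Wnt2b, with 119, 167 and 181 normalised counts in KO and 261, 336 and 388 in WT cells (log2FC -1.08 ± 0.41, FDR = 0.40), and Fzd9, with 328, 363 and 509 against 457, 557 and 599.9 (log2FC -0.43 ± 0.22, FDR = 0.78). The Wnt2b libraries did not overlap between genotypes, as for 16.4% of all genes with a mean of 10 or more normalised counts in the 6 libraries, and those of Fzd9 did. Replicate numbers were taken to pair the libraries at this stage, although for replicate 2 this is uncertain, as described below. With the replicate as a block in a fit of these 6 libraries alone, 4 members passed and all were lower in KO cells: Wnt2b (log2FC -1.08, FDR = 2.67e-08), Fzd9 (-0.44, FDR = 0.0188), Sfrp1 (-0.27, FDR = 0.00697) and Tcf7 (-0.50, FDR = 0.00396). In that fit 4.07% of all genes passed. The same block in the fit of all libraries gave none (0.55% of all genes).

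At day 5, 3 of 37 members passed (8.11%), against 7.15% of all genes (4.72% higher and 2.43% lower). Wnt4 was lower in KO cells, with 249, 201 and 240.5 normalised counts against 441, 438 and 515 in WT cells (log2FC -1.01 ± 0.20, FDR = 4.11e-05). Fzd9 was lower too, with 221, 207 and 311 against 383, 378 and 514 (log2FC -0.78 ± 0.22, FDR = 0.0101), and Tcf7l2 higher, with 1042, 1090.0 and 998 against 855, 829 and 882 (log2FC 0.29 ± 0.08, FDR = 0.0116). None of these 3 overlapped between genotypes, which held for 33.4% of all genes at 10 or more normalised counts. The other nuclear factors missed the test although their libraries did not overlap either: Lef1 was 931, 1181 and 1158 in KO and 644, 677 and 740.1 in WT cells (log2FC 0.67 ± 0.44, FDR = 0.45). Tcf7l1 was 172, 196 and 162 against 118, 122 and 156 (log2FC 0.42 ± 0.16, FDR = 0.0939) and Tcf7 94.4, 88.1 and 136 against 146, 167 and 230.1 (log2FC -0.76 ± 0.29, FDR = 0.0882). Without KO day 5 replicate 1 or 2 a single member passed (5.43% and 4.43% of all genes). Fits of the 6 libraries alone called 10 without and 8 with a replicate block, when 15% and 15.8% of all genes passed. In edgeR Tcf7l2 missed the test (FDR = 0.14), as it did without WT day 5 replicate 2 or KO replicate 1 or 2, and Fzd9 missed it without WT replicate 3 or KO replicate 1 or 2.

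Day 7 was the stage at which most members differed between genotypes. Tcf7l1, Axin2, Fzd5, Tcf7l2, Sfrp2 and Wnt8a were higher in KO cells, and Fzd9, Wnt4, Wnt2b, Wnt9a, Fzd10 and Dkk3 were lower. These 12 were 28.6% of the 42 members with an adjusted p, against 28.8% of all genes (13.1% higher and 15.7% lower), so their share was close to that of all genes. With log2FC over 1 as well, 3 were higher and 3 lower (14.3% of the members against 8.22% of all genes). The median log2FC of those 42 members was -0.48, against -0.04 over all genes. KO cells of day 7 also carried more of the 6 pluripotency markers (23545 to 31174 normalised counts summed, WT 5022 to 8861) and less of the 6 fibroblast markers (6581 to 20827, WT 21281 to 33358). Of the other lists, the 4 neural markers found summed to less (2855 to 3884, WT 8153 to 9558), most of it Tubb3 (log2FC -1.40, FDR = 4.16e-09). The 6 markers of mesendoderm and the primed state summed to more (398 to 617, WT 51.4 to 134), most of it Otx2 (283 to 484, WT 20.6 to 84.6, log2FC 2.93, FDR = 3.26e-09). Eomes and Pou3f1 were also higher past the test. Mixl1, Gsc and Fgf5 missed it (log2FC 0.12, -0.96 and 0.28) and were under 10 normalised counts. The 5 endothelial markers summed to more as well (3288 to 3403, WT 1028 to 1291), most of it Tie1 (2604 to 2798, WT 815 to 1064). Pecam1 was also higher past the test, Kdr missed it (FDR = 0.16), and Cdh5 and Emcn were under 10 normalised counts. The part of these lists in the results below was not tested. All 12 calls were kept in edgeR, with TMM factors, with both blocked fits and without KO MEF replicate 3, and only Fzd10, Wnt8a and Wnt9a missed the test when 1 library was left out.

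**Figure D3:**
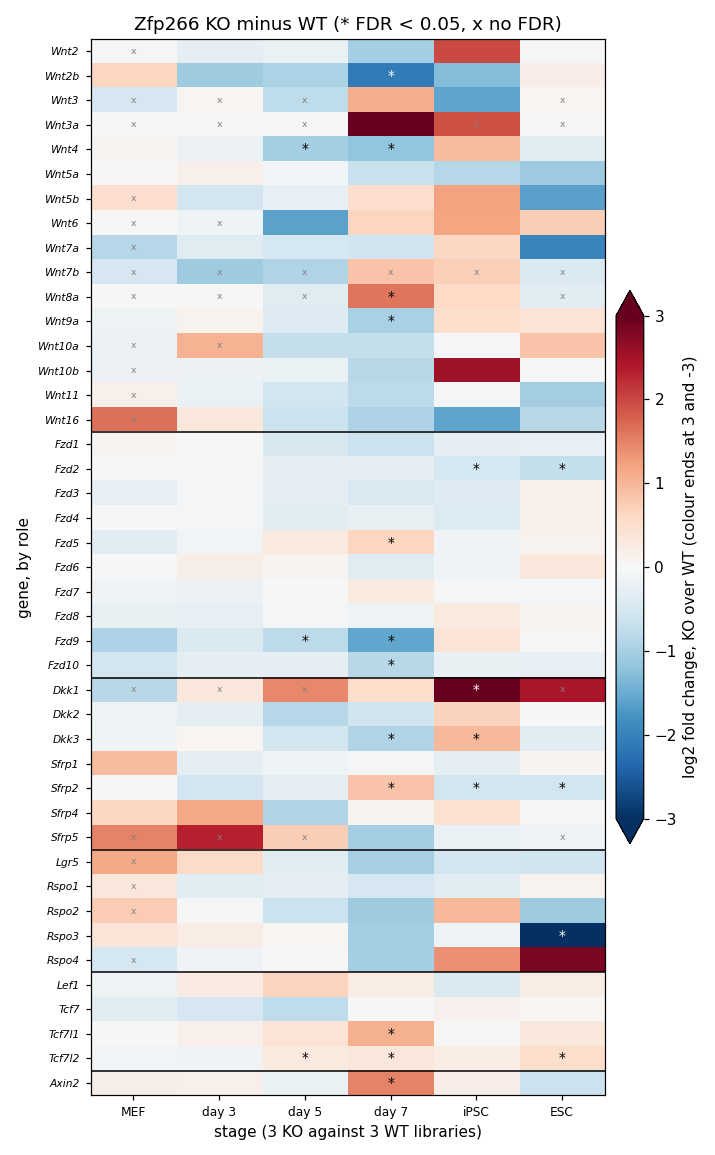
Log2 fold change of KO over WT for each member (rows, by role) at each stage (columns), from 3 against 3 libraries, with colours ending at 3 and -3, stars for FDR < 0.05 and crosses where DESeq2 gave no FDR. The MEF and day 3 columns hold no star, and the day 7 column holds 12, spread over every role but the R-spondins with Lgr5.

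The DNA stretches just upstream of 4 of these genes are shown because a pair of them (Axin2, Fzd5) was higher and the other pair (Wnt4, Fzd9) lower in KO cells at day 7. They are RefSeq promoter windows on GRCm38.p6, read 5′ to 3′ on the strand of the gene and limited to bases outside the annotated gene, with GC boxes (GGGCGG on either strand) in capitals. They lie at chr11:108920099-108920348 (plus strand), chr1:64737752-64738000 (minus), chr4:137277385-137277488 (plus) and chr5:135251231-135251297 (minus).
Axin2: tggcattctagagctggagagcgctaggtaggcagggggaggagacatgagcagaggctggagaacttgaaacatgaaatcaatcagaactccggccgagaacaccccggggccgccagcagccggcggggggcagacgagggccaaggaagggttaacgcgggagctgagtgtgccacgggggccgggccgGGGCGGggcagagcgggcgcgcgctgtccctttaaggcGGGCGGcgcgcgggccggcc
Fzd5: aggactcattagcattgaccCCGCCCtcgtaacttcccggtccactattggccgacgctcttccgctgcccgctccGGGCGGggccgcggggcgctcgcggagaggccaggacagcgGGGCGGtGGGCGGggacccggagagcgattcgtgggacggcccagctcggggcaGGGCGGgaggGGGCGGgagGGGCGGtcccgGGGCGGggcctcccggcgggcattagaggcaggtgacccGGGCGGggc
Wnt4: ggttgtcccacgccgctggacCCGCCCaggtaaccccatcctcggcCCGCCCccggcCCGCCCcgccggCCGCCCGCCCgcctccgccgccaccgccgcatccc
Fzd9: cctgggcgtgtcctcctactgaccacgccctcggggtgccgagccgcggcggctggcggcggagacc
The printed bases held 2 GC boxes in Axin2, 9 in Fzd5, 5 in Wnt4 and none in Fzd9, counting overlapping matches. Their lengths of 250, 249, 104 and 67 bases differ, so these counts cannot be compared between genes. In the full windows of 250 bases the counts were 2, 9, 8 and 1. In the 250 bases before each RefSeq start site, which for some genes lie partly inside the GENCODE gene, 27 of the 37 promoters of the 29 matched members had a GC box, and 32.7% of all 32851 promoters did. The TCF/LEF motif, searched as CTTTGAT or CTTTGAA on both strands, was in 7.48% of all promoters and in those of Dkk1, Wnt11 and Wnt5b, but in none of the windows of Axin2, Tcf7l1, Fzd5, Wnt4, Wnt2b and Fzd9. A match is a run of letters and not a measured binding site.

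Among nuclear factors, Tcf7l1 was 638, 746 and 634 normalised counts in KO and 310.4, 320.2 and 325 in WT cells at day 7. The lowest KO library lay far above the highest WT library, and 53.5% of all genes at 10 or more normalised counts had no overlap at this stage (log2FC 1.08 ± 0.14, FDR = 1.01e-12), and the KO level at day 7 was still below the WT iPSC level of 1377 to 2212. Tcf7l2, which falls in pluripotent cells, was nevertheless higher in KO cells, at 1233, 1151 and 1185 against 967, 953 and 883 with no overlap (log2FC 0.35 ± 0.08, FDR = 1.66e-04). Lef1 was 770.2, 917 and 903 in KO and 749.6, 735 and 735 in WT cells, which do not overlap but missed the test (log2FC 0.22 ± 0.44, FDR = 0.77). Tcf7 overlapped throughout, at 116, 219.7 and 205 against 121, 190.3 and 241 (log2FC -0.03 ± 0.28, FDR = 0.97). The target gene Axin2 was 44.2, 91.0 and 70.8 normalised counts in KO and 10.1, 39.3 and 23.7 in WT cells, again with no overlap (log2FC 1.5 ± 0.35, FDR = 1.81e-04). Both genotypes of day 7 stayed below the 264 to 537 normalised counts of Axin2 in WT iPSCs.

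**Figure D4:**
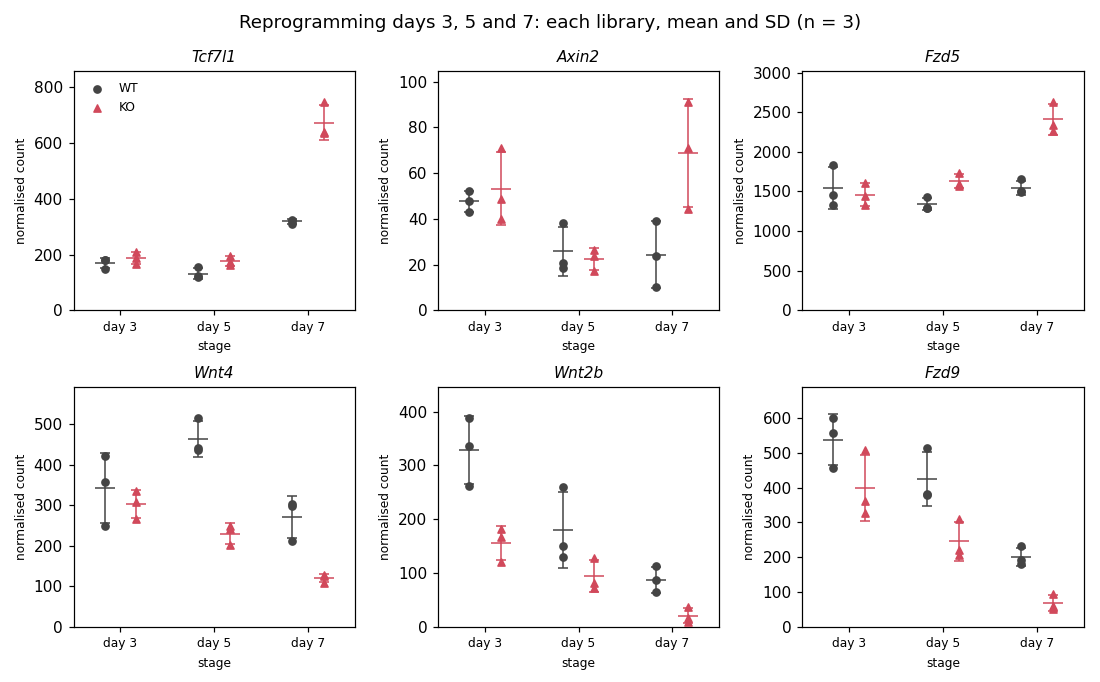
Normalised counts of 6 members in each library of days 3, 5 and 7 (WT circles, KO triangles), with the mean and SD of 3 libraries, on axes that start at 0. At day 7 the KO triangles of Tcf7l1, Axin2 and Fzd5 sit above all WT circles, and those of Wnt4, Wnt2b and Fzd9 below them.

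Of the ligands, 3 were lower and 1 higher in KO cells at day 7. Wnt4, at chromosome 4, 137277489 to 137299726, plus strand, was 125, 129 and 108 normalised counts in KO and 212, 299 and 305 in WT cells (log2FC -1.18 ± 0.21, FDR = 4.48e-07). Wnt2b was 16.1, 8.75 and 36.3 against 63.9, 86.6 and 112 (log2FC -2.10 ± 0.45, FDR = 3.69e-05). Every KO library was below every WT library for both, and both genes are near 0 in iPSCs and ESCs. Wnt9a was lower with overlapping libraries, 62.3, 115 and 99.9 against 89.3, 172 and 279 (log2FC -0.96 ± 0.33, FDR = 0.0157). Wnt8a, a ligand of the early embryo's posterior that was at 0 in MEFs and day 3 cells, was 31.1, 28.9 and 39.0 in KO and 3.04, 10.1 and 19.5 in WT cells (log2FC 1.60 ± 0.62, FDR = 0.0355). The lowest KO library exceeded the highest WT library, and the WT ESC libraries held 20.1, 13.2 and 20.0. Wnt3a, a strong activator of beta-catenin signalling, had 32 reads in the 3 KO libraries and 3 in the WT libraries, a ratio of 9.72 with a 95% counting interval of 3.04 to 49.6. The KO reads were 2, 10 and 20, and the interval leaves out this spread between libraries. Wnt3a missed the test (log2FC 3.25, FDR = 0.0556). Wnt7b, with 122 to 140 normalised counts in KO and 57.8 to 85.6 in WT cells, got no adjusted p in any comparison of the fit to all libraries, because DESeq2 withholds it from a gene with an outlying count. In fits of the 6 day 7 libraries alone it was higher in KO cells (log2FC 0.89, FDR = 7.71e-04, and 0.90, FDR = 0.00244 with the replicate block), and in the 6 day 5 libraries alone it was lower (log2FC -0.88, FDR = 0.0283). The remaining ligands with an adjusted p missed the test, with log2FC from -1.01 (Wnt2) to 1.09 (Wnt3).

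Among receptors, Fzd9 was 50.2, 58.6 and 94.4 normalised counts in KO and 191, 180.2 and 231 in WT cells at day 7 (log2FC -1.56 ± 0.24, FDR = 2.60e-09). Fzd10 was also lower, 231, 286 and 337 against 506, 483 and 532 (log2FC -0.83 ± 0.32, FDR = 0.032). Fzd5 was higher, 2267, 2628 and 2332 against 1651, 1489 and 1503 (log2FC 0.64 ± 0.16, FDR = 4.02e-04). None of the 3 overlapped between genotypes, whereas Fzd7, the leading receptor gene of ESCs, was at 585, 769 and 764 against 533, 588 and 615 and did overlap (log2FC 0.29 ± 0.20, FDR = 0.29). Fzd3 came just short (log2FC -0.45, FDR = 0.0501), as did Fzd1 (log2FC -0.64, FDR = 0.0598). Among secreted inhibitors Dkk3 was lower, 147, 139 and 92.6 against 224, 249.7 and 228 normalised counts (log2FC -0.89 ± 0.23, FDR = 8.46e-04), and Sfrp2 higher, 82.3, 118 and 82.6 against 57.8, 57.4 and 42.2 (log2FC 0.85 ± 0.22, FDR = 0.00107). Neither overlapped between genotypes. Sfrp1, the highest member per kb at day 7 in WT cells, was 2736, 2433 and 2330.2 in KO and 3255, 2393 and 2174 in WT libraries and was not separated (log2FC -0.06 ± 0.37, FDR = 0.94). Lgr5 was 17.1, 15.8 and 9.08 against 24.3, 28.2 and 30.9, with no overlap and an FDR of 0.18 (log2FC -1.0), and of the 4 R-spondins none passed (log2FC -1.07 to -0.51). Other fits raised the day 7 count by over 1.5 times. In all, 19 members passed without KO MEF replicate 3, with Lgr5, Rspo2, Rspo3, Wnt10b, Wnt11, Fzd1 and Fzd3 added, when 33.1% of all genes passed. Fits of the 6 day 7 libraries alone gave 20 without and 21 with the replicate block, which the replicate numbers of this stage allow, when 36% and 33.9% of all genes passed.

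The sign of WT ESCs minus WT MEFs gives a direction against which the day 7 differences can be read. The libraries of day 7 are in neither of these groups. Of the 10 members past the test both at day 7 and between WT MEFs and WT ESCs, 7 differed in KO cells with that sign (70.0%): Axin2, Dkk3, Fzd5, Wnt2b, Wnt4, Wnt8a and Wnt9a. Over all 5355 genes past both tests the share was 74.6%. Fzd9, Sfrp2 and Tcf7l2 had the other sign. For Fzd9 and Sfrp2, however, WT day 7 cells lay outside the range between WT MEFs and WT ESCs. Their KO levels at day 7 were nearer to those of WT ESCs. Fzd9 was 50.2 to 94.4 normalised counts in KO and 180 to 231 in WT cells at day 7, and 34.4 to 45.2 in WT ESCs. Sfrp2 was 82.3 to 118 in KO and 42.2 to 57.8 in WT cells at day 7, and 471 to 591 in WT ESCs. With log2FC over 1 at day 7 as well, 4 of 5 members and 81.2% of 1443 genes had the sign of WT ESCs minus WT MEFs. The share among members was thus close to that of all genes.

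The KO effect at day 7 was set against that at day 3, which has no library in common with it, by the interaction term of the same fit. It passed for 8 of 37 members, against 13.4% of all genes. The effect was more positive at day 7 for Tcf7l1 (difference in log2FC 0.94, FDR = 2.95e-04), Axin2 (1.34, FDR = 0.043), Sfrp2, Fzd5 and Tcf7l2. It was more negative for Fzd9 (-1.14, FDR = 0.00739), Wnt4 (-1.0, FDR = 0.00898) and Dkk3. Wnt2b was lower in KO cells at both days, and its change between them was not called (log2FC -1.03, FDR = 0.29). In edgeR, and without WT day 3 replicate 2, 5 members were called, with 6.86% and 10.8% of all genes.

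Outside the 43 members, 45 further pathway genes were found of a list of 46 with co-receptors, ligand processing, other inhibitors, the cytoplasmic core, nuclear cofactors and feedback genes. The list was chosen with earlier results of these data known, so its shares beside those of all genes describe it and are not a test. None passed in MEFs or at day 3 (DESeq2), where unadjusted p-values fell below 0.05 for 6 and 2 of them. On day 5, 5 of 43 did (11.6%, against 7.15% of all genes), led by the inhibitor genes Apcdd1 (log2FC 0.92 ± 0.21, FDR = 6.57e-04) and Wif1 (log2FC 0.72 ± 0.17, FDR = 0.00107). Only Apcdd1 passed in edgeR, where Wif1 had FDR = 0.0804. At day 7, 22 of 45 passed (48.9%, 11 in each direction, against 28.8% of all genes). Porcn, the acyltransferase that Wnt ligands need for secretion, was 270.1, 350.1 and 300.5 normalised counts in KO and 73.0, 126 and 86.4 in WT cells at day 7 (log2FC 1.69 ± 0.29, FDR = 1.24e-07). Wls, the carrier of Wnt ligands to the surface, was lower (mean 648 ± 44.3 against 1215 ± 351, SD, n = 3, log2FC -0.91 ± 0.17, FDR = 9.47e-07). The groups of Porcn did not overlap, so both genes of ligand release differed, but in opposite directions. The corepressor gene Tle4 was 2778, 3188 and 2430.1 against 1214, 1293 and 1047 (log2FC 1.24 ± 0.14, FDR = 7.15e-17) and Tle3 was lower (log2FC -0.69 ± 0.16, FDR = 1.15e-04). Of the inhibitors, Apcdd1 was 3627, 3372 and 2858 against 1636, 1547 and 1423 (log2FC 1.10 ± 0.21, FDR = 1.85e-06), and Notum, which removes the lipid from Wnt ligands, 169, 225 and 211 against 58.8, 99.7 and 57.6 (log2FC 1.48 ± 0.34, FDR = 1.17e-04). Both were higher without overlap. Of 7 target and feedback genes, Nkd2 (log2FC -1.23 ± 0.14, FDR = 3.84e-16), Nkd1, Tnfrsf19 and Ccnd2 were lower and Cdx1 was higher (log2FC 2.91 ± 0.88, FDR = 0.00506), so Axin2 and Cdx1 moved against most of that list. Among co-receptors and related genes Ptk7 was higher (log2FC 0.94 ± 0.15, FDR = 3.46e-09) and Lgr6 lower (log2FC -1.13 ± 0.39, FDR = 0.017), while Lrp5 and Lrp6 missed the test (log2FC -0.26 and 0.04). Beta-catenin itself, Ctnnb1, was slightly higher (log2FC 0.20 ± 0.04, FDR = 2.95e-06).

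In iPSC clones 4 of 41 members passed (9.76%), against 16.3% of all genes (9.72% higher and 6.63% lower). Dkk3 was higher in KO clones, 85.9, 60.8 and 46.5 against 29.4, 27.6 and 41.8 normalised counts with no overlap, as for 21.1% of genes at 10 or more normalised counts (log2FC 0.97 ± 0.27, FDR = 0.00477). Dkk1, a Wnt target that blocks the co-receptors, had 43 reads in KO and 2 in WT clones, a ratio of 23.2 with a 95% counting interval of 6.05 to 198 (FDR = 0.0143), from levels of 24.0, 6.08 and 12.1 against 0, 1.72 and 0. Fzd2 was lower, 178, 263 and 252 against 442, 271 and 289 (log2FC -0.53 ± 0.17, FDR = 0.019), and so was Sfrp2, 298, 358 and 414 against 682, 425 and 460.2 (log2FC -0.55 ± 0.18, FDR = 0.0196). Neither Fzd2 nor Sfrp2 overlapped between genotypes, although the highest KO clone lay close below the lowest WT clone. None of the 4 calls held without KO iPSC replicate 1, the clone with Gata6 and Sox17 counts, when 9.28% of all genes passed and Dkk3 had FDR = 0.11, Sfrp2 0.15 and Fzd2 0.20. Its part in them was not tested further. Calls were lost in other fits too. A fit of these 6 libraries alone lost Dkk3, Fzd2 and Sfrp2 (3.25% of all genes passed), and with the replicate block it lost all 4 (3.71%). Dkk1 was lost without WT or KO iPSC replicate 2 (11.6% and 18.8%), and Fzd2 and Sfrp2 without WT replicate 1 (20.2%). Axin2 was 470.2, 417 and 387 in KO and 317, 537 and 264 in WT clones, overlapping (log2FC 0.19 ± 0.30, FDR = 0.75), and Tcf7l1 1936, 1954 and 2088 against 2212, 1377 and 2205 (log2FC 0.05 ± 0.13, FDR = 0.88). Lef1 varied more between clones than between genotypes, at 549, 115 and 276 against 148, 773 and 351. Tcf7 was 1072, 865 and 1578 against 1037, 878 and 1280.4, and Tcf7l2 189.7, 148 and 157 against 154, 151 and 119, neither past the test.

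In ESCs 4 of 37 members passed (10.8%), against 9.86% of all genes (5.69% higher and 4.17% lower). Tcf7l2 was higher in KO clones, 131, 178 and 221 against 122, 127 and 122 normalised counts (log2FC 0.52 ± 0.12, FDR = 7.81e-04). Fzd2 was lower, 207, 157 and 169.6 against 272, 265 and 341 (log2FC -0.72 ± 0.18, FDR = 0.00193), as was Sfrp2, 405, 324 and 342 against 471, 515 and 591 (log2FC -0.56 ± 0.18, FDR = 0.0274). The libraries of these 3 genes did not overlap, against 34.1% of all genes at 10 or more normalised counts. Rspo3 had 1 read in the KO and 16 in the WT libraries, 16.6-fold fewer with a 95% counting interval of 2.58 to 697 (FDR = 0.0278), at levels of 0.898, 0 and 0 against 7.03, 1.01 and 6.95. Axin2 was 274, 184 and 165 in KO and 299, 304 and 367 in WT ESCs. No KO library reached a WT library, but the test was missed (log2FC -0.64 ± 0.30, FDR = 0.17), and a fit of these 6 libraries alone gave FDR = 0.00362. Tcf7l1 was 2322, 2347 and 2235 against 1673, 1735 and 2157 (log2FC 0.31 ± 0.13, FDR = 0.12). Lef1 was 428, 189 and 215 against 225, 225 and 266 and Tcf7 929, 1202 and 1401 against 1084, 1105 and 1177, both overlapping. Lgr5 was low in both, with 1.80, 3.89 and 2.69 against 0, 10.1 and 2.61. The WT libraries are 1 line and the KO libraries come from clones of it, whose number is not stated, so clone and genotype cannot be told apart here. With edgeR, and without KO ESC replicate 2 or 3, only 2 members passed, when 5.06%, 5.8% and 7.23% of all genes did. Rspo3 missed the test in edgeR (FDR = 0.0671) and without WT replicate 1 or 3 or KO replicate 2 or 3 and got no adjusted p in a fit of these 6 libraries alone, and Tcf7l2 missed it in a fit of these 6 libraries alone (FDR = 0.0677) and without KO replicate 3.

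**Figure D5:**
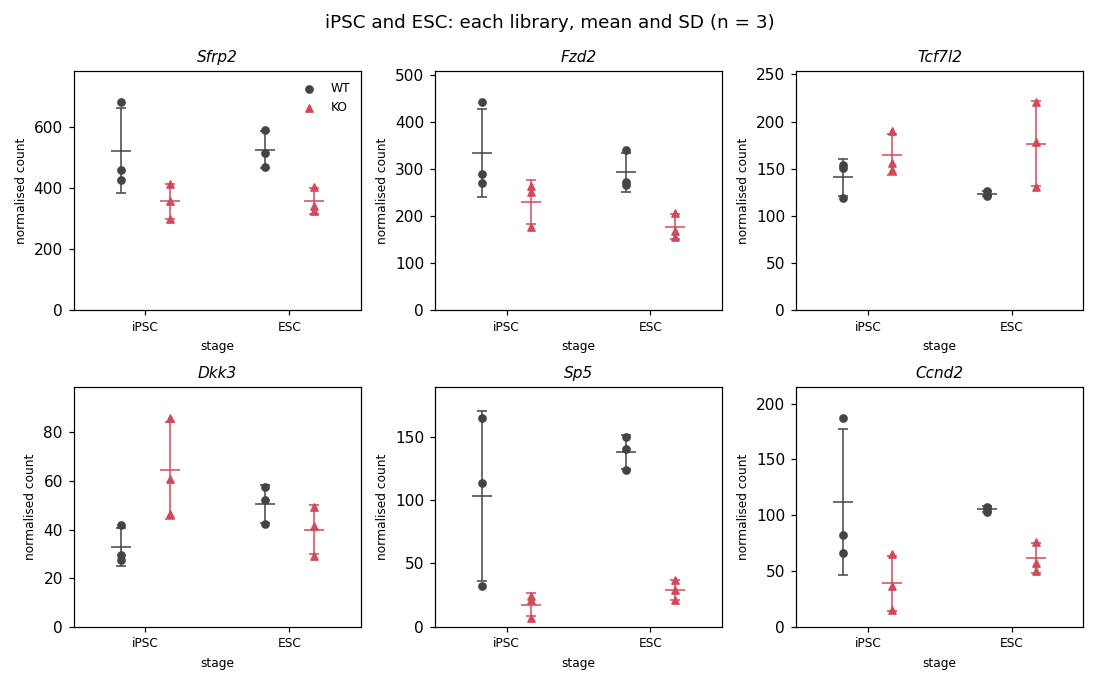
Normalised counts in each iPSC and ESC library (WT circles, KO triangles) with the mean and SD of 3 libraries, on axes that start at 0, for 4 members and for the Wnt target genes Sp5 and Ccnd2. In ESCs the KO triangles of Sfrp2, Fzd2, Sp5 and Ccnd2 lie below all WT circles, and in iPSCs those of Dkk3 lie above them.

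Fzd2 and Sfrp2 were lower in KO cells in both pluripotent stages, which share no library. Both iPSC calls were lost without KO or WT iPSC replicate 1 and in a fit of those 6 libraries alone, and the ESC call on Sfrp2 was lost in edgeR (FDR = 0.0650) and without WT ESC replicate 2 or 3 or KO ESC replicate 2 or 3. A test of the difference between the KO effects of iPSCs and ESCs passed for 2 of 35 members, against 1.53% of all genes. Wnt5b was 25.0, 12.2 and 10.1 normalised counts in KO and 8.64, 6.89 and 4.64 in WT iPSCs, and 11.7, 2.92 and 0 in KO and 13.1, 20.2 and 12.2 in WT ESCs (difference in log2FC 2.84, FDR = 0.0349). Dkk3, higher in KO iPSCs, was 41.3, 29.2 and 49.3 in KO and 42.2, 57.7 and 52.1 in WT ESCs (difference 1.31, FDR = 0.0461). Several Wnt5b libraries are near the limit of 0, and in edgeR neither gene was called. Of the further pathway genes, 9 of 45 passed in iPSCs (20.0%, against 16.3% of all genes) and 4 of 43 in ESCs (9.30%, against 9.86%). In edgeR 8 and 1 did (14.6% and 5.06% of all genes), the latter being Sp5. Sp5, a direct target of beta-catenin signalling that encodes a transcription factor, was lower in both. It held 6.99, 24.3 and 21.2 normalised counts in KO and 32.0, 164 and 113 in WT iPSCs (log2FC -2.55 ± 0.48, FDR = 7.22e-06), and 36.8, 21.4 and 28.7 in KO and 141, 123 and 149 in WT ESCs (log2FC -2.25 ± 0.46, FDR = 1.05e-04). No KO library of either stage reached a WT library of the same stage, and Sp5 in iPSCs passed the test with each iPSC library left out in turn. Ccnd2, which encodes a cyclin of the G1 phase, was also lower in both (iPSCs, log2FC -1.53 ± 0.27, FDR = 2.0e-06, ESCs, log2FC -0.78 ± 0.26, FDR = 0.0364). The iPSC call on Ccnd2 was lost in a fit of those 6 libraries alone (FDR = 0.097). Its ESC call was lost in edgeR (FDR = 0.12) and with any ESC library but KO replicate 1 left out (FDR from 0.0762 to 0.17). Axin2 passed in neither stage in the fit of all libraries. In ESCs, however, its KO libraries also lay below every WT library, and a fit of those 6 libraries alone called it lower.

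Where genes on opposite strands overlap, unstranded counting could not tell their reads apart, and the strand setting of the counting is not given in the sources used here. An opposite-strand gene overlaps exons of 10 members, most in Fzd5 (17.8% of exon bases), Sfrp2 (16.1%), Lef1 (13.7%) and Rspo3 (13.1%), and less in Tcf7l1 (4.56%) and Axin2 (3.80%). No exon of Wnt4, Wnt2b, Fzd9, Fzd2, Dkk3 or Tcf7l2 is so overlapped.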

How the data were processed

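RNA was sequenced from 36 libraries in 12 groups of 3, with a stranded mRNA kit and single-end reads. The authors trimmed adapters with cutadapt, mapped reads to GRCm38 with STAR and counted them per gene with Rsubread. The deposited count table holds these raw counts. The deposited signal table holds normalised counts, that is counts divided by DESeq2 size factors, and the size factors computed here gave the same values within a relative difference of 4.63e-10. The authors' tables of log2 fold change, p-value and FDR, and a log2 matrix corrected for library preparation dates, were not used here. Those dates, the annotation release and the strand setting of the counting are not given in the sources used here, so a batch of library preparation could not be entered in a fit.

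Groups and replicate numbers came from the sample titles. Counts were fitted with DESeq2 1.42.0 in R 4.3.3: 1 factor of 12 levels over all libraries, Wald test, independent filtering, unshrunken log2FC, Benjamini-Hochberg FDR over all genes, threshold 0.05. A gene without an adjusted p was left out of the counts of calls. Alternatives were edgeR 4.0.16 (quasi-likelihood), TMM factors, no independent filtering, a filter of 10 counts in 3 libraries, fits of the compared groups alone, a replicate block, and each library left out. Chosen after seeing the data were a fit without KO MEF replicate 3 and the block within 6 libraries. In simulated day 7 data DESeq2 recovered 97 of 100 genes changed by log2FC 1 and 100 of 100 changed by 2, with 13 false calls among 21442 genes, and edgeR 97 and 100 with 8 of 21129. The simulation gave every gene the same dispersion and changed only genes well expressed in WT day 7 cells. Recovery of low members such as Wnt8a and Wnt3a, or of members with a larger spread, was not simulated.

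Deviations from group means of same-numbered WT and KO libraries correlated at 0.456, 0.101 and 0.272 on day 3 and at 0.339, 0.172 and 0.392 on day 7. Numbers were taken to pair libraries there, since each value was over 0.1, the cut used here. The lowest values were 0.0897 on day 5, -0.0248 in MEFs, -0.142 in iPSCs and -0.0275 in ESCs, where they were not. Between different numbers the highest value was 0.126 on day 3, above that of its replicate 2, so pairing is uncertain there. It was 0.0160 on day 5 and -0.00933 on day 7, so day 5 missed the cut by little.

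The members, the list of further pathway genes and the marker lists were chosen with earlier results of these data known. All members were accounted for by role. Values per library were printed for members past FDR 0.05 with log2FC over 1 in any KO comparison, for Axin2, Lef1, Tcf7, Tcf7l1, Tcf7l2 and Lgr5, and for the 3 highest per kb in WT MEFs and WT ESCs. Of the further pathway genes up to 4 per role, by lowest FDR, were named. Values of Wnt3a, Wnt7b, Wnt10b, Wnt5a, Wnt5b, Fzd1, Fzd10, Fzd2 and Wnt9a, of Wnt16, Rspo2 and Rspo4 in KO MEF replicate 3, and of Lrp5, Lrp6 and Ctnnb1, were added after they had been seen. Gene lengths, positions and overlaps came from the GENCODE annotation of GRCm38, and promoters from RefSeq (GRCm38.p6), which matched 29 of 43 members.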

Additional observations from a re-analysis of the deposited data

Results flagged for a closer look

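The KO effect differed between stages for some members by the interaction term of the DESeq2 fit, over stages that share no library. Between day 7 and day 3 the difference in log2FC (KO over WT) was 0.94 for Tcf7l1, 0.44 for Tcf7l2, 1.44 for Sfrp2, 0.71 for Fzd5 and 1.34 for Axin2, and -1.14 for Fzd9, -1.0 for Wnt4 and -0.96 for Dkk3. Sfrp2 stands out in that its KO libraries were 15, 17.0 and 14.6 normalised counts on day 3 against 25.7, 18.0 and 26.2 in WT cells (log2FC -0.59), the opposite side to day 7. All 3 KO libraries lay below the WT libraries on day 3 and above them on day 7. Such a lack of overlap held for 16.4% (day 3) and 53.5% (day 7) of all genes at 10 or more normalised counts. On day 3 the margin was small (17.0 in KO against 18.0 in WT cells), and that day alone missed the test (FDR = 0.84). Between iPSCs and ESCs the difference was 2.84 for Wnt5b and 1.31 for Dkk3. Wnt5b rests on few reads, with 2 of the KO ESC libraries at or below 3 normalised counts.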

How the results depend on the processing

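No named call turned its direction under the alternatives run. Fits of the compared libraries alone gave 2 called members at day 3 (2.21% of all genes), 10 at day 5 (15%) and 20 for day 7 (36%). They gave 1 for iPSC clones (3.25%), 12 between WT days 5 and 7 (29.1%) and 0 for the iPSC against ESC effects (0.269%). The same fits put 14 members toward ESCs. For the counts toward ESCs in other fits, the share over all genes is not given here. The replicate block within 6 libraries gave 4 (day 3, 4.07% of all genes), 8 (day 5, 15.8%), 21 (day 7, 33.9%) and 0 (iPSCs, 3.71%). The block over all libraries gave 1 for iPSC against ESC effects (1.47%) and changed the day 7 count to 15 (31.2%). Without KO MEF replicate 3 the counts were 5 at day 5 (10.4% of all genes), 19 at day 7 (33.1%), 9 between WT days 5 and 7 (27.8%) and 14 toward ESCs. In edgeR they were 2 in ESCs (5.06% of all genes), 5 for the day 7 against day 3 effects (6.86%) and 0 for iPSC against ESC effects (0.294%), where no independent filtering gave 1 (1.03%). Requiring log2FC over 1 at day 7 left 4 members toward ESCs. With 1 library left out in turn the counts ran from 0 to 1 in MEFs, 0 to 0, 1 to 4 and 10 to 14 for days 3, 5 and 7, 0 to 7 for iPSC clones (0 without KO iPSC replicate 1, 7 without KO iPSC replicate 3) and 2 to 5 in ESCs. The shares of all genes in these fits ran from 0.014% to 1.04% in MEFs. They were 0.145% to 0.48%, 4.37% to 6.27% and 24.4% to 28.2% for days 3, 5 and 7. In iPSCs they were 9.28% to 20.2% (17.3% without KO iPSC replicate 3) and in ESCs 4.93% to 11.2%. The counts ran from 35 to 37, 6 to 11, 5 to 6 and 29 to 32 for the WT steps from MEFs to iPSCs, 0 to 1 for WT ESCs against iPSCs, 36 to 36 for WT ESCs against MEFs, 5 to 9 and 0 to 2 for the stage differences and 6 to 10 toward ESCs. For the WT steps, 67.3% to 68.2%, 21.8% to 26.0%, 18.0% to 21.5% and 69.9% to 71.5% of all genes passed. For WT ESCs it was 0.194% to 11.8% against iPSCs and 75.8% to 77.0% against MEFs. For the stage differences it was 8.84% to 13.8% and 0.765% to 3.54%. In ESCs, the 6 libraries alone added Axin2, Tcf7l1 and Wnt5a and did not call Rspo3 and Tcf7l2. The other counts of members moved by less than 1.5 times. Of the further pathway genes edgeR called 1 rather than 5 at day 5 and 1 rather than 4 in ESCs, fits of the compared libraries alone called 12 at day 5, 2 in iPSCs and 6 in ESCs, and the counts in iPSCs and ESCs were 4 without KO iPSC replicate 1 and 0 without KO ESC replicate 2, where Sp5 got no adjusted p. Of the single-gene calls, 227 of those under other settings were kept and 24 lost, and 189 were kept and 66 lost with a library left out. The cause of these shifts was not tested. Depth limits genes such as Wnt3a, Dkk1, Rspo3 and Lgr5 in pluripotent cells, whose reads were near the limit that a count of 0 allows.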

Other observations

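Lef1 differed widely between iPSC clones of either genotype, with WT clones at 148, 773 and 351 and KO clones at 549, 115 and 276 normalised counts. Wnt7b was high in a single clone of each genotype, at 4.32, 6.03 and 76.1 in WT and 2.0, 2.60 and 136 in KO iPSCs. The clones high in Lef1 (WT replicate 2, KO replicate 1) were other ones than those high in Wnt7b (replicate 3 of each genotype). Both were picked here for this spread.

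Among further pathway genes in iPSCs, the glypican gene Gpc3 (log2FC 0.94 ± 0.28, FDR = 0.00803), Tnfrsf19 (log2FC 0.76 ± 0.25, FDR = 0.0168), Kremen1 and Ryk were higher in KO clones, and Notum (log2FC -0.89 ± 0.32, FDR = 0.0389), Pygo2 (log2FC -0.35 ± 0.08, FDR = 3.20e-04) and Tle1 were lower beside Sp5 and Ccnd2. Without KO iPSC replicate 1, the clone with Gata6 and Sox17 counts, only Pygo2, Sp5 and Ccnd2 of these 9 passed, with Gpc3 at FDR = 0.0535, Tnfrsf19 at 0.0540, Ryk at 0.0968, Kremen1 at 0.12, Notum at 0.21 and Tle1 at 0.33. Tle1 was also lower in KO ESCs (log2FC -0.28 ± 0.09, FDR = 0.0202), a call lost in edgeR (FDR = 0.0618) and in 4 of the 6 fits without 1 ESC library (FDR from 0.0716 to 0.17). Notum and Tnfrsf19 lay on the other side of WT cells at day 7, with Notum higher and Tnfrsf19 lower in KO cells. The change of either effect between day 7 and iPSCs was not tested.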
